A study of Mus musculus with 16 samples.

Results

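The cytosolic ribosomal protein genes encode the proteins of the small and the large subunit of the ribosome that works outside mitochondria. The members were protein-coding genes whose symbol, found by matching the accession given for each probe to RefSeq, begins with Rps or Rpl and a digit or with Rplp and a digit, or is Rpsa or Fau. Rps6k kinase genes and pseudogenes were left out. This gave 88 of the 20660 genes with a symbol on the array, measured by 178 of its 55681 probes. The small subunit had 35 genes with 65 probes, and the large subunit had 53 genes with 113 probes. Rps19bp1 encodes a binding partner of Rps19 and not a ribosomal protein, and Rps23rg1 and Rpl32l also fit the rule by their symbols. All 3 were kept.

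In every ribosome the small subunit reads the messenger RNA and the large subunit joins the amino acids, and each holds a fixed set of proteins around ribosomal RNA. The messages of these proteins are abundant in liver, which makes much of the protein in blood plasma. Many of them begin with a 5′ terminal oligopyrimidine tract (TOP), a C followed by a run of pyrimidines at the very start of the message, through which mTOR signalling and the protein Larp1 control their translation together.

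The livers came from female B6C3F1 mice, a hybrid strain used in toxicology, bought at 5 to 6 weeks of age and dosed by oral gavage for 21 days. Furan is a small volatile compound that liver enzymes turn into a reactive product. The first held 4 livers of mice given furan, 8 mg per kg of body weight dissolved in corn oil, and kept 3 weeks in formalin. The second held livers of mice given corn oil alone and kept 3 weeks in formalin, with 4 arrays that stood for 3 samples. The third held 4 livers of mice given the same furan dose and kept 18 h in formalin, and the fourth held 4 livers of mice given corn oil alone and kept 18 h in formalin. All livers were taken 4 h after the last dose and embedded in paraffin. RNA came from 2 sections of 10 µm at 3 weeks and from 1 section at 18 h, so the effects of formalin time and of the number of sections cannot be told apart. Each two-colour array compared liver cDNA in Cy5 with a pool of the cDNA of all samples in Cy3. A value is the log2 ratio of a liver to that pool after background correction and normalization within the array. It compares samples for 1 probe and gives no order between probes.

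RNA integrity numbers lay between 1.3 and 2.4, which means strongly fragmented RNA in every group. The share of all probes well above background was 35.9 to 41.4% on the furan arrays and 32.3 to 36.7% on the corn oil arrays at 3 weeks, and 51.9 to 55.2% on the furan arrays and 44.3 to 50.1% on the corn oil arrays at 18 h. For the ribosomal protein probes the same shares were 91 to 93.8%, 89.9 to 92.1%, 94.9 to 95.5% and 93.8 to 94.9%, in that order of groups. All 12 hepatocyte marker genes on the array were above background on every array, as the labelled tissue requires. Arrays 2.1 and 2.2 of corn oil at 3 weeks share a sample number and were averaged to 1 sample. Sample numbers recur at both formalin times, and the labels do not say whether they mark the same mice. The 16 arrays lay on 2 slides, with 2 arrays of every group on each. With 3 or 4 samples in each group, their number limits the precision.

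Of the 178 member probes, 169 were bright enough to test, 63 for all 35 small subunit genes and 106 for 50 large subunit genes. Of these, 159 were above background on all 16 arrays. The 3 genes without a tested probe were Rpl3l, Rpl10l and Rpl39l, copies of Rpl3, Rpl10 and Rpl39 known for use in muscle or testis. A probe was tested if it was above background on at least 3 arrays of 1 group, so counts over the tested probes leave out the dimmest members.

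The starts of the members are shown first because the members carry the TOP tract more often than other genes, and the formalin changes are given below by where the tract lies. The set of annotated start sites used here, in build GRCm38.p6, held 80 sites for 68 members and none for the other members. A C at the annotated start followed by at least 4 pyrimidines stood at 15 of these 80 sites (18.8%), against 823 of all 32851 starts in the set (2.51%). It stood at 7 of 32 small subunit sites and at 8 of 48 large subunit sites. Within 10 bases of the start, where an inexact annotation could put it, such a tract was found at 55.0% of member sites, against 30.7% of all sites. Only the transcribed strand was searched, and no match says only that the letters are not at that place. Each line below gives 30 bases, 10 before the start and 20 from it, and capitals mark a tract that begins at the start.
Rpl38, chr11:114668570-114668599, + strand: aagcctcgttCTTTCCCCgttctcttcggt
Rplp2, chr7:141447641-141447670, + strand: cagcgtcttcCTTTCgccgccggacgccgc
Rpl14, chr9:120571507-120571536, + strand: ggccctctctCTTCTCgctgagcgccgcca
Rps27, chr3:90213629-90213658, - strand: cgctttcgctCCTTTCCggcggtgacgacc
Rpl28, chr7:4792955-4792984, + strand: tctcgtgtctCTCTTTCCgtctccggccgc
Rps6, chr4:86857348-86857377, - strand: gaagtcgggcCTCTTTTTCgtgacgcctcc
Fau, chr19:6057937-6057966, + strand: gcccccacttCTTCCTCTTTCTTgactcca
Rps16, chr7:28350679-28350708, + strand: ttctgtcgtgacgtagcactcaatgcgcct
Rpl41, chr10:128549149-128549178, - strand: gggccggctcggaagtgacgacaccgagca
Rpl6, chr5:121204491-121204520, + strand: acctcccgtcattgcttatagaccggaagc
Rpl4, chr9:64173377-64173406, + strand: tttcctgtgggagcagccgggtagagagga
The first 7 are members with the tract at the start, of which Rpl38, Rplp2, Rpl14, Rps27 and Rpl28 had a probe that was higher after 3 weeks and Rps6 and Fau had probes that were lower. The last 4 have no tract at the annotated start, and their probes are described below.

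The median ribosomal protein probe was lower in livers fixed for 3 weeks than in livers fixed for 18 h, and at 18 h it was slightly higher in furan livers. Over the 169 tested probes the median log2 ratio per sample averaged -0.36 ± 0.08 in furan livers and -0.40 ± 0.03 in corn oil livers at 3 weeks, and 0.13 ± 0.03 in furan livers and 0.01 ± 0.03 in corn oil livers at 18 h (SD, n = 4, 3, 4 and 4). The medians of all tested probes had means of -0.06, -0.07, 0.02 and 0.00 in the same order. Normalization within each array holds these near 0, so the member medians are relative to the other probes of the array. At 3 weeks the medians of the large subunit probes lay at -0.51 to -0.34 in furan livers and -0.49 to -0.44 in corn oil livers, and those of the small subunit probes at -0.47 to -0.14 and -0.31 to -0.22. The subunits' ranges overlapped in furan livers through sample 44 and did not overlap in corn oil livers. Furan sample 44 at 3 weeks had the lowest median of its group, -0.48 over all members against -0.32 to -0.31 in the other 3 samples.

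**Figure D1:**
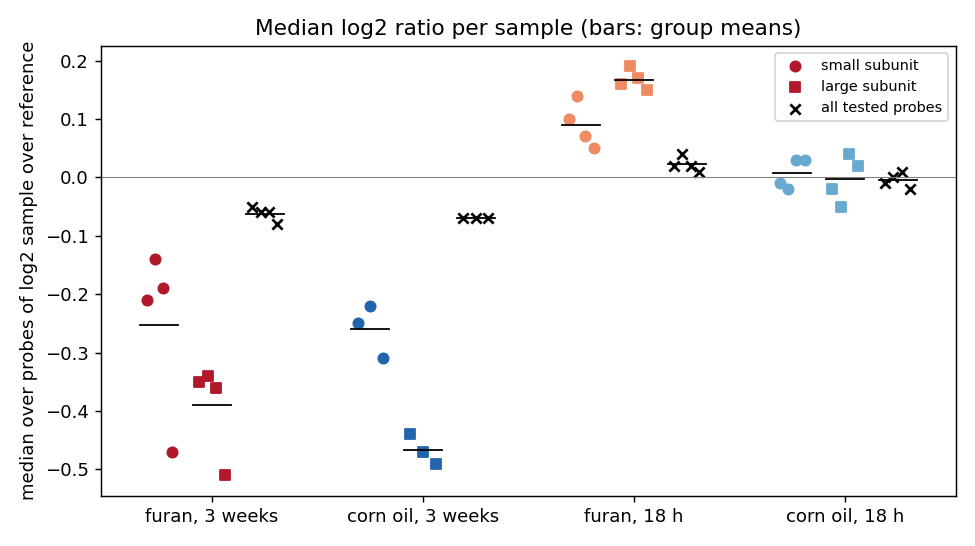
Median log2 ratio of liver over pooled reference (vertical axis) of the small subunit probes (circles), the large subunit probes (squares) and all tested probes (crosses), with 1 symbol per sample and a bar at each group's mean, for the 4 groups along the horizontal axis. The member medians lie at -0.14 or below in all samples of both 3-week groups and at -0.05 or above in all samples of both 18 h groups. The medians of all tested probes, which the normalization holds near 0, lie between -0.08 and 0.04.

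**Figure D2:**
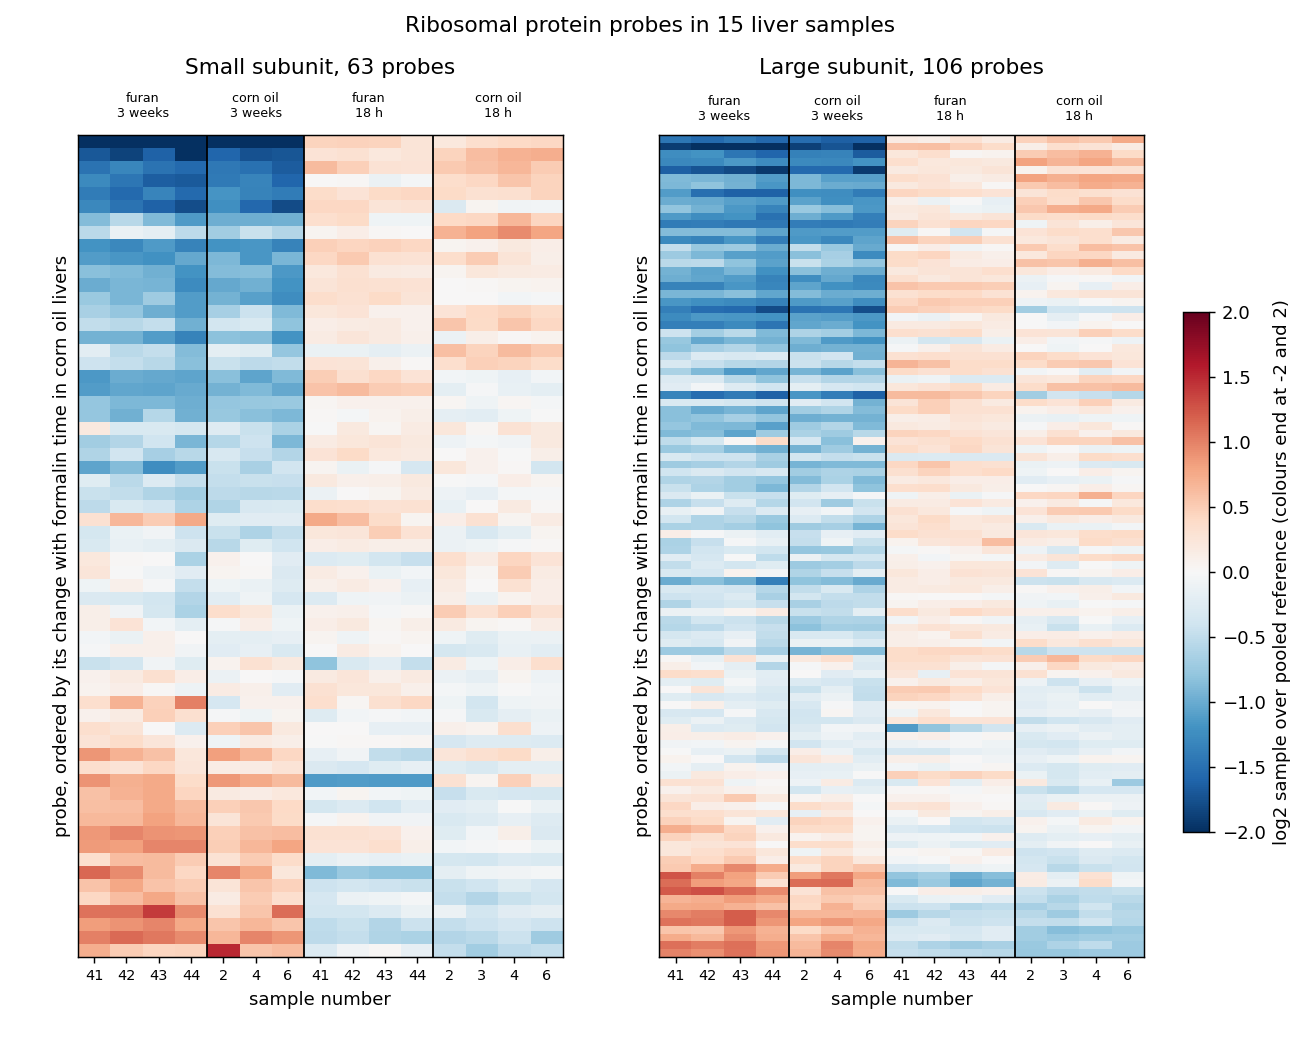
Log2 ratio of liver over pooled reference of the 169 tested ribosomal protein probes (rows, ordered by their change with formalin time in corn oil livers) in 15 samples (columns, with sample numbers), for the 63 small subunit probes and the 106 large subunit probes. Red is above and blue below the pool, and most rows turn from blue at 3 weeks to pale or red at 18 h, with a smaller block at the bottom of each panel that does the opposite.

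Furan against corn oil was compared first in livers fixed for 18 h. Here 58 member probes were higher and 35 were lower in furan livers at an adjusted p under 0.05 (limma with the slide as a term, Benjamini-Hochberg over all 29690 tested probes, of which 47.2% were called). The higher share, 34.3% of member probes, stood beside 20.4% of all tested probes, and the lower share, 20.7%, beside 26.8%. The median log2 difference was 0.10 for members and -0.05 for all probes. The small subunit had 19 higher and 13 lower probes with a median of 0.07, and the large subunit had 39 higher and 22 lower with a median of 0.12. The split depended on the scaling of the arrays: it was 82 higher and 29 lower with the authors' deposited values, and 126 higher and 5 lower when each array was only centred on its median, which moved the median to 0.63 for members and 0.10 for all probes. Within slide 1 alone 23 were higher and 20 lower, and within slide 2 alone 23 were higher and 24 lower, with member medians of 0.09 and 0.10.

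In whole liver, fewer cells of a type and less RNA per cell cannot be told apart. Hepatocyte markers moved with furan at 18 h: 10 of 16 probes were lower and 0 higher, with a median of -0.55, and their mean log2 ratio lay between -0.07 and 0.06 in furan samples and between 0.49 and 0.56 in corn oil samples. Erythroid markers had 5 of 10 probes lower and 0 higher, and Kupffer cell and macrophage markers had 6 of 13 lower and 1 higher. Stellate cell and fibroblast markers had 4 of 10 lower and 3 higher, and endothelial markers 4 of 9 lower and 2 higher. Lymphocyte markers had 2 of 6 lower and 0 higher, and biliary markers 2 of 4 lower and 1 higher. Among all tested probes 26.8% were lower and 20.4% higher. The share of probes above background was also higher on the furan arrays. Their part in the ribosomal protein values was not tested.

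Among member probes, the largest rises with furan at 18 h were in the large subunit. Rpl6, a large subunit protein, had log2 ratios of 0.64, 0.64, 0.54 and 0.44 in furan livers 41 to 44, against -0.70, -0.39, -0.46 and -0.57 in corn oil livers 2, 3, 4 and 6 (probe A_55_P2052634). The groups did not overlap, and the difference was 1.09 ± 0.08 (SE, limma adjusted p = 1.1e-05), a 2.13-fold rise. Another Rpl6 probe rose by 0.93 and another by 0.43, while the dimmest of the 4 stood at -0.18 and was not called. Rpl4, whose protein lines part of the tunnel through which the new peptide leaves the ribosome, had 0.36, 0.41, 0.41 and 0.36 in furan livers, against -0.56, -0.42, -0.42 and -0.42 in corn oil livers. All furan samples were above all corn oil samples, with a difference of 0.84 ± 0.08 (limma adjusted p = 3.09e-05). Among further large subunit rises were 0.68 for Rpl14, 0.65 and 0.62 for Rpl17 and 0.61 for Rpl27a.

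Rises were also seen in the small subunit. Rps4x, the X-linked form of a small subunit protein, rose by 0.46. Rps27l, the paralog of Rps27 that p53 activates, rose by 0.34 ± 0.08 (limma adjusted p = 0.00461), with 0.35, 0.31, 0.38 and 0.26 in furan livers and 0.00, 0.01, -0.05 and -0.03 in corn oil livers. Of the 4 probes of Rps27 itself, 1 fell by 0.59, which was -0.06 with a limma adjusted p of 0.75 under median centring, and 3 lay between -0.05 and 0.01 without a call.

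The largest falls were in both subunits and were larger than most of the rises. Rps3a1, the mouse gene for a small subunit protein near the site where the message leaves the ribosome, had -1.14, -1.12, -1.13 and -1.13 in furan livers, against 0.31, 0.06, 0.48 and 0.17 in corn oil livers (A_55_P2136385). The 4 furan values were nearly the same and far below the lowest corn oil value, and the difference was -1.39 ± 0.10 (limma adjusted p = 1.1e-05), 2.61-fold lower. A dimmer Rps3a1 probe was called the other way, at 0.31. Rpl28, a large subunit protein, had -0.88, -0.74, -1.04 and -0.95 in furan livers, against 0.16, -0.12, 0.37 and -0.06 in corn oil livers, again without overlap. It fell by 0.99 (SE 0.11, limma adjusted p = 8.56e-05). Under median centring these changes were -0.88 for Rps3a1 and -0.46 for Rpl28, against rises of 1.68 for Rpl6 and 1.42 for Rpl4, and all kept their calls.

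Rpl26, a large subunit protein that also binds Trp53 mRNA, fell at all 3 probes, by 0.86, 0.28 and 0.22, but under median centring the largest was -0.35 and the smaller 2 changes turned to 0.07 and 0.33. Its most changed probe had -0.79, -0.69, -0.98 and -0.85 in furan livers, against 0.15, -0.19, 0.29 and -0.09 in corn oil livers. Rps19, the small subunit protein whose gene is the one most often mutated in Diamond-Blackfan anaemia in people, had 0.06, 0.14, 0.02 and 0.00 in furan livers, against 0.70, 0.81, 0.95 and 0.79 in corn oil livers. It fell by 0.76 (SE 0.08, limma adjusted p = 5.51e-05), and under median centring the fall was 0.30 with an adjusted p of 0.0518. Further falls were 0.71 for 1 Rps18 probe, 0.69 for Rps26, 0.64 for 1 Rps2 probe and 0.59 for Rps23rg1. Under median centring they were smaller, at -0.32 for Rps18 and -0.39 for Rps23rg1, and those of Rps26 and Rps2 lost their calls, at -0.16 and -0.13 (limma adjusted p = 0.329 and 0.419).

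Members with roles outside the ribosome went both ways. Rpl5 and Rpl11, which bind 5S ribosomal RNA and can hold back Mdm2, the protein that removes p53, were at -0.28 and at 0.22, 0.26 and 0.40 on the 3 Rpl11 probes, all called, with Rpl5 turning to 0.20 under median centring. Rpl23, which also binds Mdm2, rose at 1 probe by 0.24 and stood at 0.19 and 0.17 at the others. Rps6, which S6 kinases phosphorylate, fell by 0.36 and 0.34 at the brighter probes, turning to 0.18 and 0.20 under median centring, and rose by 0.46 at the dimmest. Rplp0, Rplp1 and Rplp2, which form the stalk that binds translation factors, had called rises of 0.22 at 1 of 3 Rplp0 probes and 0.27 for Rplp1, and Rplp2 stood at 0.08. Of the genes whose protein is made fused to ubiquitin or a ubiquitin-like part, neither Fau, at 0.11, nor Rps27a, at 0.16 and 0.07, was called. The smaller of these calls depended on single samples: those of Rpl5, Rplp0, Rplp1 and Rpl23, of the 2 less changed Rpl11 and Rpl26 probes and of the lower Rpsa probe described below were each lost in 2 to 7 of the 8 fits that left out 1 sample, with limma adjusted p-values up to 0.132.

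**Figure D3:**
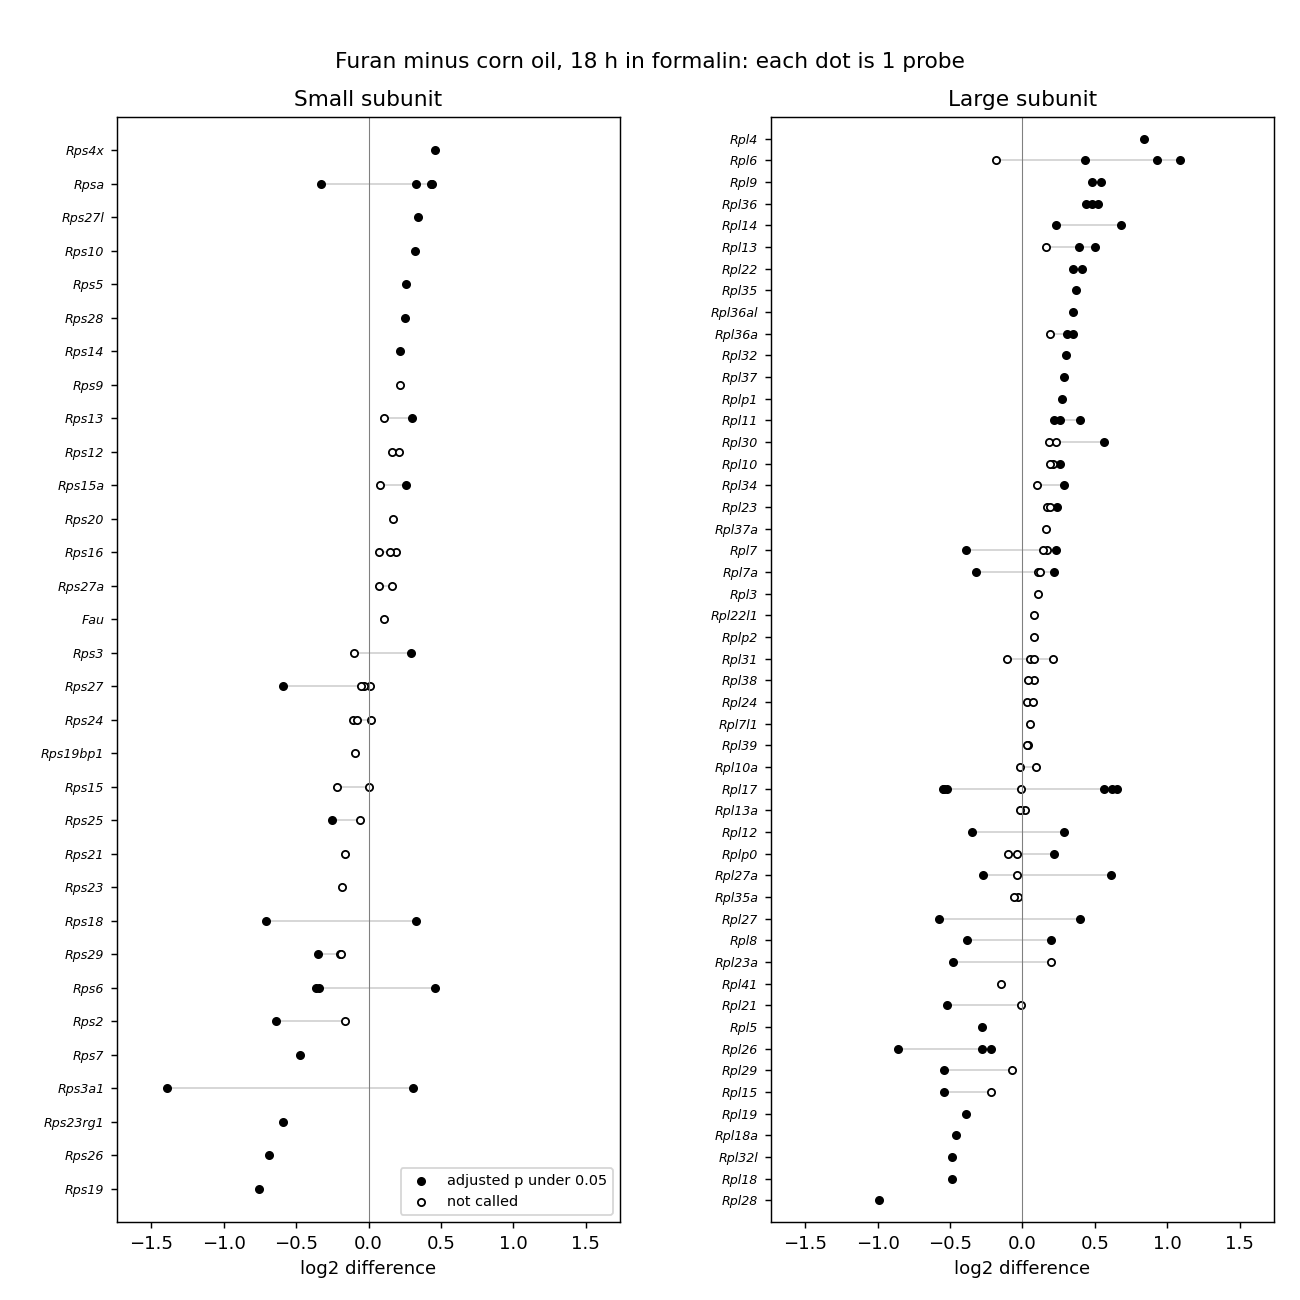
Log2 difference of furan minus corn oil at 18 h (horizontal axis) for the tested probes (dots) of the genes listed, with 1 row per gene, the small subunit on the left and the large subunit on the right; filled dots have an adjusted p under 0.05 and grey lines join the probes of 1 gene. Values run from -1.39 for Rps3a1 to 1.09 for Rpl6, and 11 genes have filled dots on both sides of 0.

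Furan against corn oil was then compared in livers fixed for 3 weeks. No member probe was called by limma, where 0.118% of all tested probes were (35 probes, 0.0876% higher and 0.0303% lower), and 19 of the 169 member probes had an unadjusted p under 0.05, beside 4102 of all 29690. The smallest adjusted p of a member was 0.0773. The median difference was 0.05 for members and 0.00 for all probes. Under median centring 55 member probes were called, all higher, with a median of 0.39, against 7.01% higher and 0.792% lower calls among all probes. With the authors' deposited values 3 were higher and 1 lower. Hepatocyte markers had 0 of 16 probes called here, with a median of -0.20.

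Values that did not overlap between the groups at 3 weeks were higher in furan livers for 35 member probes and lower for 4, where such values made up 7.53% and 5.85% of all tested probes. The probes with the largest rise and the largest fall at 18 h, of Rpl6 and Rps3a1, were not called here. Rpl6 (A_55_P2052634) had -1.32, -1.53, -1.42 and -1.62 in furan livers, against -1.17, -1.39 and -1.62 in corn oil livers 2, 4 and 6, a difference of -0.08 ± 0.15 (SE, limma adjusted p = 0.861). Rps3a1 (A_55_P2136385) had 0.90, 0.71, 0.76 and 0.37 in furan livers, against 0.87, 0.75 and 0.63 in corn oil livers, a difference of -0.07 ± 0.15 (limma adjusted p = 0.892). In both genes the groups overlapped.

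Whether the furan change differed between the formalin times was tested directly, as the change at 3 weeks minus the change at 18 h. This difference was called for 32 member probes, 17 higher and 15 lower, beside 12.8% of all tested probes called (7.82% higher and 4.93% lower). The members had 10.1% higher and 8.88% lower. The small subunit had 4 higher and 3 lower, and the large subunit had 13 higher and 12 lower. The split was 4 higher and 22 lower under median centring and 18 higher and 31 lower with the authors' deposited values. With no filter on dim probes 16 member probes were called, leaving out corn oil sample 4 at 18 h left 19 calls, and within either slide alone there were 0. Pairing samples of the same number across formalin times gave 17 calls. Hepatocyte markers had 6 of 16 probes higher and 0 lower in this difference, and their part was not tested.

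In the direction of the furan change, the called probes were mostly those with a clear change at 18 h and little at 3 weeks. For Rps3a1 the furan change was -0.07 at 3 weeks and -1.39 at 18 h, a difference of 1.32 ± 0.17 (limma adjusted p = 0.000769). For Rps19 it was 0.23 and -0.76, with 0.98 ± 0.16 (limma adjusted p = 0.00166). For Rpl6 it was -0.08 and 1.09, with -1.17 ± 0.15 (limma adjusted p = 0.000712). Rpl4 had 0.21 and 0.84, with a difference of -0.63. Rpl28 had -0.21 and -0.99, with a difference of 0.78 that lost its call without corn oil sample 4 at 18 h or corn oil sample 6 at 3 weeks (limma adjusted p = 0.0529 and 0.0686). Rpl26 stood at 0.00 at 3 weeks and -0.86 at 18 h, with a difference of 0.86.

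Formalin time was compared within corn oil livers as 3 weeks against 18 h. At 3 weeks 104 member probes were lower and 34 higher (limma, adjusted p under 0.05), which is 61.5% and 20.1% of them, beside 30.8% lower and 28.5% higher among all tested probes (59.3% called). The median difference was -0.49 for members and 0.00 for all probes. The large subunit had 69 lower and 16 higher probes with a median of -0.57, and the small subunit had 35 lower and 18 higher with a median of -0.35. A change of at least 2-fold was measured at 41 lower and 11 higher member probes of 169, beside 2815 lower and 2531 higher among all 29690. Median centring gave 115 lower and 21 higher with a median of -0.88, and moved the median of all probes to -0.24. Hepatocyte markers had 12 of 16 probes lower and 0 higher, with a median of -0.74, and the share of probes above background was lower at 3 weeks. Their part in the member values was not tested.

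The largest fall with formalin time was in the small subunit. Rps16, a protein whose tail reaches the tRNA at the decoding site, had -2.07, -2.10 and -2.22 at 3 weeks, against 0.21, 0.33, 0.40 and 0.41 at 18 h in corn oil livers (A_55_P2132844). All 3-week values were far below all 18 h values, and the difference was -2.47 ± 0.11 (SE, limma adjusted p = 3.02e-11), 5.54-fold lower. All 3 Rps16 probes were called lower, the least changed at -0.35. Rps6 had -1.58, -1.74 and -1.71 at 3 weeks, against 0.45, 0.61, 0.69 and 0.72 at 18 h, 4.89-fold lower (limma adjusted p = 2.42e-10). Its start is the pyrimidine tract printed above. The other Rps6 probes fell by 0.98 and 0.36. Rps7, which can also bind Mdm2, fell by 1.88.

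In the large subunit, Rpl7 had -1.53, -1.63 and -1.62 at 3 weeks, against 0.46, 0.58, 0.53 and 0.76 at 18 h, a difference of -2.17 ± 0.10 (A_55_P2126470, limma adjusted p = 4.13e-11). Rpl34 had -1.86, -1.72 and -2.16 at 3 weeks, against 0.12, 0.34, 0.27 and 0.16 at 18 h, a difference of -2.14 ± 0.10 (limma adjusted p = 6.04e-11). Neither gene's groups overlapped at these probes. Of the 4 Rpl7 probes 3 were called lower, and the highest stood at 0.05 without a call. Further differences were -1.99 for Rpl32l, -1.92 and -0.99 for the 2 Rpl10a probes and -1.53 for Rpl41, the shortest ribosomal protein, all called. Rplp1 of the stalk fell by 1.52, while Rplp2 rose by 1.09.

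A smaller set of members was higher after 3 weeks. Rpl14, a large subunit protein, had 0.68, 0.95 and 0.74 at 3 weeks, against -0.76, -0.76, -0.72 and -0.73 at 18 h, a difference of 1.53 ± 0.10 (A_55_P2070913, limma adjusted p = 1.21e-09), 2.89-fold higher. Rpl24, which reaches across to the small subunit, had 0.64, 0.98 and 0.75 at 3 weeks, against -0.74, -0.61, -0.51 and -0.73 at 18 h, a difference of 1.44 ± 0.10 (limma adjusted p = 3.96e-09). Rps27, a small zinc-finger protein, had 0.66, 0.98 and 0.88 at 3 weeks, against -0.58, -0.54, -0.43 and -0.71 at 18 h, a difference of 1.40 ± 0.10 (limma adjusted p = 4.91e-09). At all of these probes every 3-week sample was above every 18 h sample. The rises of Rpl14 and Rpl24 were each seen at 1 of 2 tested probes. The other Rpl14 probe stood at -0.12 and the other Rpl24 probe at 0.09, and neither was called. In furan livers the other Rpl14 probe was called lower, at -0.47.

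Rps27 rose at all 4 probes, by 0.37, 0.43, 0.78 and 1.40, though the smallest rise turned to -0.09 under median centring and lost its call without corn oil sample 2 at 3 weeks (limma adjusted p = 0.0713). Its paralog Rps27l fell by 1.07 ± 0.11 (limma adjusted p = 4e-07), with -0.94, -1.09 and -1.24 at 3 weeks and 0.00, 0.01, -0.05 and -0.03 at 18 h. Rpl38, which mouse embryos need for translating Hox messages, had 0.79, 0.86 and 0.78 at 3 weeks, against -0.48, -0.49, -0.38 and -0.57 at 18 h. It rose by 1.28 and 1.26 at its 2 probes.

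**Figure D4:**
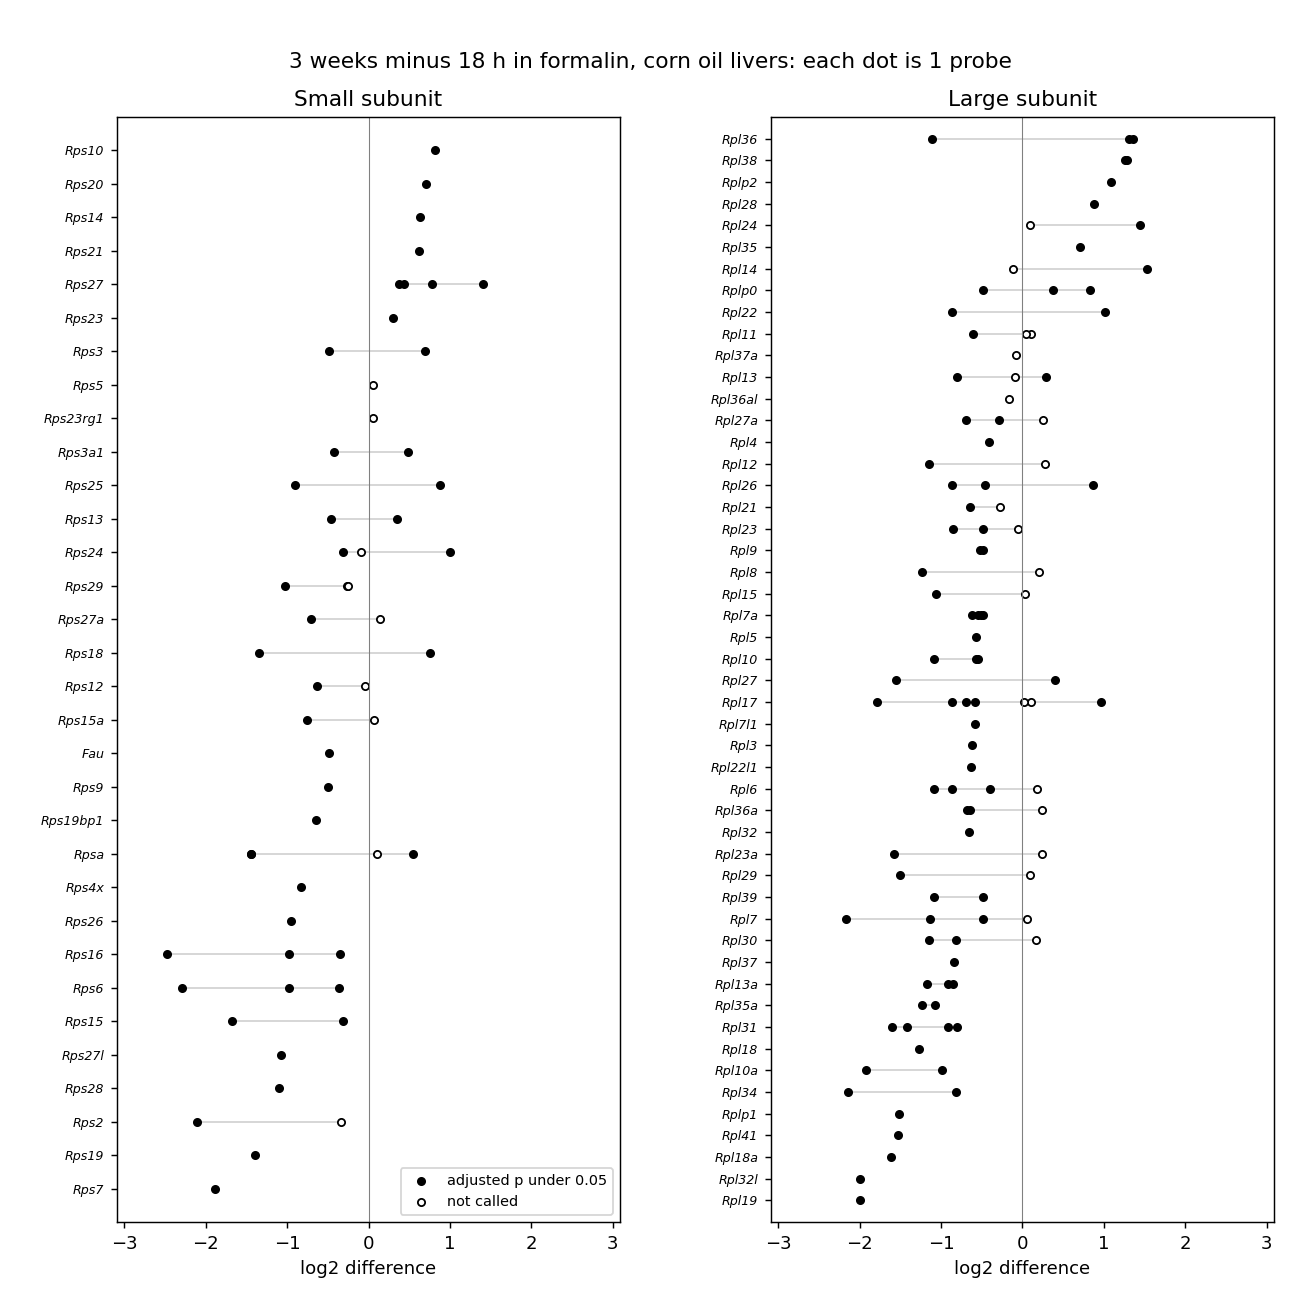
Log2 difference of 3 weeks minus 18 h in formalin in corn oil livers (horizontal axis) for the tested probes (dots) of the genes listed, with 1 row per gene, the small subunit on the left and the large subunit on the right; filled dots have an adjusted p under 0.05 and grey lines join the probes of 1 gene. Values run from -2.47 for Rps16 to 1.53 for Rpl14, and 14 genes have filled dots on both sides of 0.

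In furan livers the same comparison of formalin times used other samples and gave nearly the same picture. At 3 weeks 105 member probes were lower and 39 higher, beside 32% lower and 35.1% higher among all tested probes (67.1% called), with a median of -0.48 for members and 0.03 for all. The large subunit had 74 lower and 20 higher, and the small subunit had 31 lower and 19 higher. Median centring gave 121 lower and 25 higher, with a median of -1.10 for members and -0.29 for all probes. In both treatments 99 member probes were lower and 33 higher, and 0 were called in opposite directions. Groups did not overlap for 98 lower and 39 higher member probes in furan livers, beside 27.8% and 29.8% of all tested probes. Hepatocyte markers had 11 of 16 probes lower and 1 higher, with a median of -0.80, and their part was not tested. These shared calls were 95.7% of the corn oil calls and 91.7% of the furan calls, against 81.1% and 71.7% for all tested probes. Across the 169 probes the 2 changes correlated at r = 0.92, and across all 29690 at r = 0.88, as a description over probes that share arrays and labelling.

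The size of the formalin change differed between treatments where the furan change did. Rpl6 (A_55_P2052634) fell by 2.04 with formalin time in furan livers and by 0.86 in corn oil livers. Rps3a1 (A_55_P2136385) rose by 1.81 in furan livers and by 0.49 in corn oil livers, and the corn oil rise was 0.07 with an adjusted p of 0.714 under median centring. Their differences are the same contrast as the difference of the furan changes given above. Rps16 fell by 2.68 in furan livers, with -2.42, -2.10, -2.15 and -2.42 at 3 weeks, against 0.44, 0.46, 0.45 and 0.25 at 18 h. Rpl24 rose by 1.64 in furan livers, with 1.10, 1.03, 1.10 and 0.87 at 3 weeks, against -0.50, -0.62, -0.71 and -0.65 at 18 h. Its other probe stood at -0.25 and was not called.

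**Figure D5:**
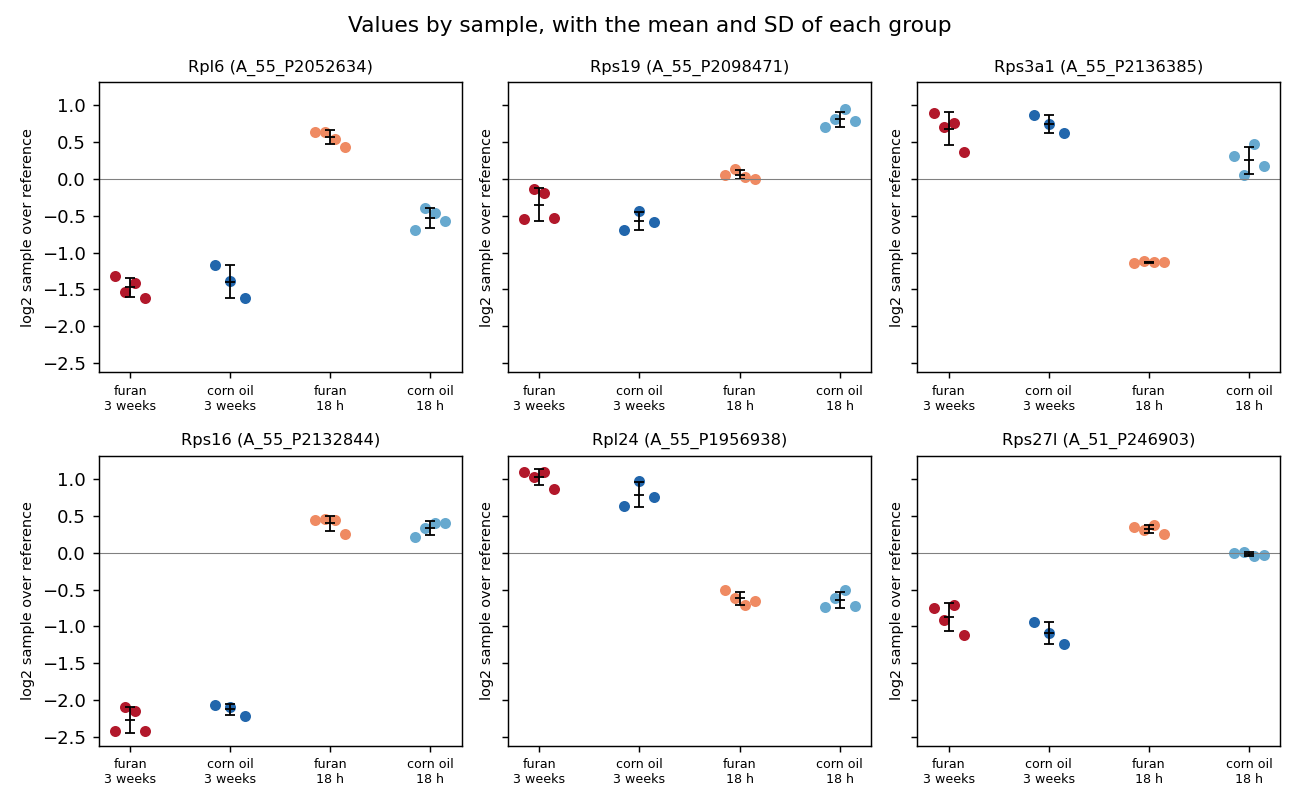
Log2 ratio of liver over pooled reference (vertical axis) for 6 member probes, with 1 dot per sample and the mean and SD of each group, for the 4 groups along the horizontal axis. Rpl6, Rps3a1 and Rps19 separate furan from corn oil at 18 h and overlap at 3 weeks, Rps16 and Rps27l are lower in both 3-week groups, and Rpl24 is higher in both.

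Probes of 1 gene often disagreed. Of the 51 members with at least 2 tested probes, 14 had probes called in opposite directions with formalin time in corn oil livers (27.5%, against 20.1% of 2967 other genes with several probes). In furan livers 19 did (37.3%, against 23.9%), and with furan at 18 h 11 did (21.6%, against 15.4%). A gene with more probes has more chances of opposite calls, and 23 of the 51 members had 3 or more tested probes. Members and other genes were not matched for their number of probes, so these shares do not show a trait of the members. The median gap between the highest and the lowest probe of a gene was 1.10 with formalin time in corn oil livers, 1.38 in furan livers and 0.32 with furan at 18 h. All probes fell together with time in corn oil livers in 13 genes, among them Rps6, Rps16, Rpl31, Rpl34 and Rpl13a, and all rose together in 3 genes, among them Rpl38 and Rps27.

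Rpl36 shows the size of this disagreement. Its probe A_55_P1976983 had 0.55, 0.74 and 0.67 at 3 weeks, against -0.70, -0.74, -0.70 and -0.69 at 18 h in corn oil livers, a rise of 1.36. Its probe A_55_P2071326 had -1.14, -1.09 and -1.25 at 3 weeks, against -0.10, -0.14, -0.01 and 0.06 at 18 h, a fall of 1.11. With furan at 18 h the same probes rose by 0.44 and 0.52, so they agreed for the treatment and not for formalin time. Rpl17 had 7 tested probes, of which 3 rose (0.56, 0.62 and 0.65) and 3 fell (0.52, 0.54 and 0.55) with furan at 18 h. Under median centring all 3 falls went to between -0.01 and 0.01 and lost their calls (limma adjusted p = 0.942 to 0.971). Rpsa, which also acts as a laminin receptor, had 3 probes that rose by 0.33 to 0.44 and 1 that fell by 0.33 with furan at 18 h, the fall turning to 0.17 under median centring.

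Many members have pseudogene copies that a probe could also bind. RefSeq names 23 pseudogenes after Rpl31 and 23 after Rps12, 13 after Rps19, 12 after Rpsa, 11 after Rpl17 and 10 after Rpl36. It names 0 after Rpl6, Rpl4, Rps3a1 and Rps27l. Only pseudogenes named with the member's full symbol and -ps were counted, so a count of 0 does not show that a gene has no copies. The part of such copies in a value was not tested, since probe sequences were not used here. The values are uncertain for that reason, also for genes with a count of 0.

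The calls were also counted by brightness. Among the 24 member probes at a mean brightness of 14 or more on the log2 scale, 10 rose and 0 fell with furan at 18 h, beside 20.5% higher and 37.6% lower among all 575 probes that bright. With formalin time in corn oil livers 12 of these 24 rose and 7 fell, beside 54.3% and 32.5% of all such probes. Among the 56 member probes at 10 to 12, 6 rose and 42 fell with formalin time, beside 37.1% higher and 42.3% lower among all 3623 such probes. The share of lower calls with formalin time thus stood above that of all probes in this class. The same held under 10 (61.5% of 26 member probes, against 28.3% of all) and at 12 to 14 (61.9% of 63, against 44.5%). In the brightest class it stood slightly below.

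The formalin changes are given here by the place of the TOP tract. In corn oil livers, of 26 probes for 15 genes with the tract at the annotated start 13 were higher and 10 lower at 3 weeks, with a median of 0.22. Of 48 probes for 24 genes with a tract within 10 bases but not at the start, 3 were higher and 37 lower, with a median of -0.69. Of 51 probes for 26 genes with neither, 11 were higher and 32 lower, with a median of -0.48. The other 44 probes, for 20 genes without a start site in the set used here, had 7 higher and 25 lower, with a median of -0.53. In furan livers the counts were 14 higher and 11 lower with the tract at the start, 4 and 36 with it nearby and 12 and 33 with neither. The probes with the tract at the start were also brighter, with a median of 12.7 on the log2 scale, against 11.4 with it nearby and 12.4 with neither, and the part of brightness was not tested. Among other genes the shares were alike. In corn oil livers 29.3% of 396 probes with the tract at the start were higher and 30.1% lower. For the 12776 probes without it there the shares were 27.8% and 33.5%. In furan livers the shares of the same probes were 35.1% and 33.3% with the tract at the start, against 33.6% and 35.2% without it. These counts are a description with no test. With furan at 18 h the member probes with the tract at the start had 7 higher and 7 lower calls (26.9% each). Member probes without it there had 34.3% higher and 18.2% lower. Among other genes 28.8% of probes with the tract at the start were higher and 24.2% lower.

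Genes that act with the ribosomal proteins were counted from hand-written lists. The other TOP messages and translation factors had 23 genes and 40 tested probes. With furan at 18 h 12 rose and 14 fell (30% and 35%, beside 20.4% and 26.8% of all tested probes), with a median of -0.06. With formalin time in corn oil livers 22 of the 40 were lower and 8 higher (55% and 20%, beside 30.8% and 28.5% of all tested probes), with a median of -0.34. Tpt1, a growth-related protein with a strong TOP tract, fell at all 3 probes with time, by 2.40, 1.46 and 1.20, and Eef1a1, the factor that brings tRNA to the ribosome, by 1.14 and 0.80.

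The ribosome biogenesis list had 32 genes and 43 tested probes. With furan at 18 h 21 rose and 5 fell (48.8% and 11.6%, beside 20.4% and 26.8% of all tested probes), with a median of 0.21. Among the rises were 0.71 each for Nop58, a core protein of the particles that methylate ribosomal RNA, and Nifk, a nucleolar protein, 0.65 for Nop2, which methylates ribosomal RNA, and 0.58 for Polr1a, the large subunit of RNA polymerase I. No member of this list was called at 3 weeks, where 0.118% of all tested probes were. The list's smallest limma adjusted p there was 0.125. The difference between the times was called for 9 of the list's probes, among them -0.67 for Nop58. Of these 2 were higher and 7 lower (4.65% and 16.3%, beside 7.82% and 4.93% of all tested probes). Mitochondrial ribosomal proteins, the separate set of the organelle, had 95 tested probes. With furan at 18 h 40 of them rose and 17 fell (42.1% and 17.9%), with a median of 0.17. With formalin time in corn oil livers 42 of them were lower and 27 higher (44.2% and 28.4%, beside 30.8% and 28.5% of all tested probes), with a median of -0.24.

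Of the 22 probes for 16 regulators, 6 rose and 4 fell with furan at 18 h (27.3% and 18.2%, beside 20.4% and 26.8% of all tested probes). The rises included 0.99 for Ddit4, an inhibitor of mTOR, 0.98 for Eif4e, the cap-binding protein that mTOR signalling frees, and 0.85 for Mdm2. The falls were 0.73 and 0.71 for Rps6kb2, an S6 kinase, 0.69 for Mdm4 and 0.69 for 1 of 2 probes of Larp1, which binds TOP messages. Myc, which drives ribosomal gene transcription, stood at 0.30 and was not called. The probes that fell with furan were also lower at 3 weeks than at 18 h in corn oil livers. The differences were -2.03 and -1.26 for Rps6kb2, -0.68 for Mdm4 and -1.42 for Larp1. Both comparisons subtract the same corn oil samples at 18 h, so a shared direction is partly built in. In furan livers the differences with formalin time were -1.09 and -0.47 for Rps6kb2, -0.59 for Larp1 and 0.13 for Mdm4, the last not called. That comparison shares the furan samples at 18 h instead.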

How the data were processed

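RNA from formalin-fixed, paraffin-embedded mouse liver was measured on 16 two-colour Agilent arrays, with the liver in Cy5 and the pooled reference in Cy3, per the labels. Spot intensities, background intensities and log10 ratios of red over green came from the authors' deposited scanner files, made with Agilent Feature Extraction 11.0.1.1 per the file headers. The authors also deposited a table of log2 values whose normalization is not given in the sources used here. Its scale and its direction, liver over pool, were set from correlations of 0.68 to 0.80 with the scanner log ratios, and whether genes were centred stays unknown. The medians of its columns were -0.00715, -0.00825, -0.00445 and -0.00133 for furan 41 to 44 at 3 weeks, -0.00872, -0.00919, -0.00159 and -0.00869 for corn oil 2.1, 2.2, 4 and 6 at 3 weeks, 0.0247, 0.0204, 0.0163 and 0.0187 for furan 41 to 44 at 18 h, and 0.000797, 0.0033, -0.0051 and 0.00438 for corn oil 2, 3, 4 and 6 at 18 h.

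From the intensities, background was corrected with normexp (offset 50) and each array was normalized by loess in limma 3.58.1 (R 4.3.3), with control spots given no weight. Arrays 2.1 and 2.2 (r = 0.92) were averaged. A probe was tested if it was well above background on at least 3 arrays of 1 group. Each probe was fitted on the log2 scale with the slide as a term, two-sided, with Benjamini-Hochberg adjustment over the 29690 tested probes and a threshold of 0.05. The furan comparisons used only their own groups, and the formalin comparisons and the difference of the furan changes used all 15 samples. Accessions were matched to RefSeq symbols for 27235 of 55681 probes, and 28446 had no match. Probe sequences and a genome were not used here. The labels call the samples biological replicates, so the p-values of the 2 furan comparisons measure the spread between these mice. The formalin comparisons and the difference of the furan changes treated samples at the 2 formalin times as separate mice. Their p-values would not measure that spread if samples that share a number came from the same mouse.

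Some member and list genes are not reported here by name, and counts include them. The members and lists were chosen with earlier results of these data known. Named genes were, in each comparison, up to 8 called probes with the largest rise and up to 8 with the largest fall, members with 3 or more tested probes or with opposite calls, and a set list of paralogs and of members with other roles. On simulated data the fit found 85, 64, 56, 84 and 93% of 2-fold changes in furan at 18 h, furan at 3 weeks, their difference, and formalin time in corn oil and in furan livers, and 29, 12, 10, 50 and 49% of 1.5-fold changes in the same order. False calls made up 3.6 to 7.04% of the simulated calls. The simulation changed 200 of 29676 probes and drew the noise of each probe separately. In the real data far more probes were called, except with furan at 3 weeks, so these shares need not hold there. Alternatives were other background, scaling, filters, slide terms, array weights, left-out samples and a replicate block.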

Additional observations from a re-analysis of the deposited data

Results flagged for a closer look

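In 60 groups of 4 samples, 5 held a sample far from its group by Dixon's criterion, which chance alone meets in about 1 in 20 groups. Furan sample 44 at 3 weeks had a member median of -0.48, against -0.32 to -0.31 in the other furan samples at 3 weeks, and a large subunit median of -0.51, against -0.36 to -0.34. For Rps16 (A_55_P2132844) furan sample 44 at 18 h stood at 0.25, against 0.44 to 0.46 in the other furan samples at 18 h. For Rpl38 (A_55_P1955059) furan sample 42 at 18 h stood at -0.28, against -0.44 to -0.42. For Rpl4 corn oil sample 2 at 18 h stood at -0.56, against -0.42 in each of the other corn oil samples at 18 h.

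The furan change differed between 3 weeks and 18 h at 32 member probes by the test of the difference itself (limma, adjusted p under 0.05), of which 14 are given here. The calls were 10.1% higher and 8.88% lower among members, beside 7.82% and 4.93% among all tested probes. Fewer members were called with no filter on dim probes and with the replicate block, and none within either slide alone. The difference, the change at 3 weeks minus the change at 18 h, was negative at 2 probes of Rpl6, at -1.17 and -0.92, at Rpl9, at -0.69, at Rpl30, at -0.66, at Rpl4, at -0.63, and at Rpl36, at -0.62. It was positive at Rps3a1, at 1.32, at Rps19, at 0.98, at Rpl26, at 0.86, at Rps18, at 0.84, at Rpl28, at 0.78, at Rpl29, at 0.74, at Rpl17, at 0.60, and at Rpl23a, at 0.58. The call for Rpl28 was lost in 2 of 15 fits that left out 1 sample.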

How the results depend on the processing

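Of 7747 values of named probes under the alternatives, 7168 kept direction and call, 558 kept only the direction and 21 turned. All 21 turned under median centring of each array. Falls with furan at 18 h became 0.19 for Rpl12, 0.18 and 0.20 for Rps6, 0.16 for Rpl8, 0.17 for Rpsa, 0.20 for Rpl5, 0.19 for Rpl7a, 0.01 for Rpl17, 0.27 for Rpl27a, 0.07 and 0.33 for Rpl26, 0.11 for Rpl7 and 0.19 for Rps29. Rises with formalin time in corn oil livers became -0.09 for Rpl13 and -0.09 for Rps27. Rises in furan livers became -0.04 for Rps3, -0.18 for Rpl27, -0.01 for Rps13, -0.14 for Rpl13, -0.21 for Rpl27a and -0.25 for Rpl15. The cause was not tested.

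Median centring moved the member medians to 0.63 with furan at 18 h, 0.39 with furan at 3 weeks, -0.14 for their difference, -0.88 with formalin time in corn oil livers and -1.10 in furan livers, and it gave 55 calls with furan at 3 weeks. Without background subtraction the medians were 0.04 with furan at 18 h, 0.05 for the difference and -0.38 with formalin time in furan livers, and 1 probe was called with furan at 3 weeks. Agilent's own log ratio gave medians of 0.11 with furan at 3 weeks, 0.07 for the difference, -0.60 with formalin time in corn oil livers and -0.53 in furan livers. The authors' deposited values gave medians of 0.19 with furan at 18 h and -0.43 with formalin time in corn oil livers, 4 calls with furan at 3 weeks and 49 for the difference. With no filter on dim probes the difference had 16 calls and the formalin median in furan livers was -0.40. With 1 probe per gene, which tests fewer probes, 48 were called with furan at 18 h, 11 for the difference, and 70 and 71 with formalin time in corn oil and furan livers, where the furan median was -0.35. Slide 1 and slide 2 alone, with fewer samples, had 43 and 47 calls with furan at 18 h, 0 and 0 with furan at 3 weeks, 0 and 0 for the difference, 125 and 119 with formalin time in corn oil livers, and 124 and 117 in furan livers. With arrays 2.1 and 2.2 as separate samples 2 probes were called with furan at 3 weeks.

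Leaving out 1 sample at a time gave 76 to 85 calls and medians of 0.09 to 0.12 with furan at 18 h, 0 to 1 calls and 0.02 to 0.10 with furan at 3 weeks, 19 to 35 calls and -0.04 to 0.03 for the difference, 131 to 140 calls and -0.52 to -0.49 with formalin time in corn oil livers, and 136 to 147 calls and -0.51 to -0.45 in furan livers. The replicate block, which pairs samples of the same number across formalin times, gave 17 calls for the difference, and 134 and 139 with formalin time in corn oil and furan livers. Same-numbered samples' deviations from their group means correlated at 0.02 to 0.18, with some pairs under 0.1, and the main fit did not pair them. These correlations cannot settle the pairing. They were taken without a slide term, and most same-numbered samples lay on the same slide at both times. Samples 2, 4, 41, 42 and 43 correlated more with their own number than with any other, and samples 6 and 44 correlated more with another number. The labels do not say whether samples that share a number come from the same mouse, so whether they are paired stays unknown. Membership by the array's own gene names was not run, since the columns used here hold none. Fragmented RNA and the lower share of probes above background at 3 weeks limit what dim probes can show.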
